A study of Drosophila melanogaster with 18 samples.

Results

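Convergent initiation sites are sites on opposite strands whose directions of transcription point towards each other. A transcript from the plus-strand site, if long enough, would cross the base at which the minus-strand transcript begins. The convergent sites were taken from the list of initiation sites of a genome-wide STAP-seq screen in Drosophila melanogaster. That list gives start positions only, so no such crossing was observed. For each site on the chromosome arms the nearest site on the opposite strand was found, and the site was kept when that neighbour lay 1 to 250 bp away in the convergent orientation, with the plus-strand site at the smaller coordinate. The rule kept 624 sites, which is 5.0% of the 12469 sites listed on the arms (2L, 2R, 3L, 3R, X and chromosome 4) and 4.72% of all 13218 listed sites. No site had a divergent neighbour at the same distance, so none was lost to a tie. The plus strand held 302 of them and the minus strand 322.

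The screen measured which short pieces of fly DNA can start transcription on their own. Genomic DNA from embryos of the y; cn bw sp strain was sheared, selected at roughly 100 to 250 bp and cloned in front of a reporter in a plasmid that carried the zfh1 enhancer (2 samples) or, as the control, no enhancer (2 samples), and both were run in S2 cells, a cultured embryonic line. The labels of these 4 samples name the same list, which has 1 set of positions and no level per sample. A second list of 753 sites is named by 3 zfh1 samples and 1 control sample of a screen with fragments of bacterial artificial chromosomes (BACs), also in S2 cells. All these samples share the plasmid backbone, with its intron and its reporter reading frame. The labels do not say whether the sites were called with the enhancer, without it or over both, and the effect of the enhancer on these sites has no value here.

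A core promoter is the stretch of DNA around a start site that recruits RNA polymerase II. In flies its known elements lie on both sides of the start, among them the TATA box upstream, the initiator at the start itself and the downstream promoter element behind it. Many fly core promoters direct transcription mainly in 1 direction. In the plasmid only transcripts that run into the reporter are read, so the plus-strand and the minus-strand site of a pair are read from fragments inserted in opposite orientations. Divergent neighbours, whose transcripts run apart, were used for comparison: 1017 sites on the arms had their nearest opposite-strand site within the same 250 bp in that orientation.

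Most convergent sites formed pairs in which each was the nearest opposite-strand site of the other. There were 263 such mutual pairs, which held 526 of the 624 sites and in which no site occurs more than once. The other 98 sites lay near a site that had a closer neighbour of its own, which was convergent in 53 cases and divergent in 45. Each of these 53 lay beside a mutual pair, on the outer side of the site on its own strand, at 23 to 235 bp from it (median 57.0 bp, 22 of the 53 within 50 bp). The 624 sites had 567 different nearest sites, and 49 of those served more than 1 convergent site, up to 5. Members that share a nearest site are not independent, so distances and orientations were tested over mutual pairs. Recovery in the other screen was tested over single sites.

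The pairs were close. The median distance of the 263 mutual convergent pairs was 39.0 bp (95% interval from order statistics 35 to 43), with quartiles of 18.0 and 75.5 bp and a range of 2 to 247 bp. The 427 mutual divergent pairs had a median of 83.0 bp (69 to 97) and a range of 1 to 249 bp. At 1 to 50 bp lay 155 of the convergent pairs, 58.9% (Wilson 95% interval 52.9 to 64.7), and 134 of the divergent pairs, 31.4% (27.2 to 35.9). The difference was 27.6 percentage points (Newcombe 95% interval 20.0 to 34.7, two-sided Fisher's exact p = 1.17e-12). The limits of 1 and 250 bp belong to the rule, and only the distribution between them is a result.

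Orientation depended on distance. At 1 to 50 bp the 155 convergent and 134 divergent pairs did not differ past the threshold of 0.05 (53.6% convergent, Wilson 95% interval 47.9 to 59.3, exact binomial p = 0.239 before and after Benjamini-Hochberg, BH, adjustment over the 5 bins). Convergent pairs were the minority in each wider bin. They numbered 60 against 106 at 51 to 100 bp (36.1%, BH-adjusted exact p = 0.000739) and 19 against 99 at 101 to 150 bp (16.1%, 10.6 to 23.8, adjusted exact p = 1.53e-13). They numbered 18 against 54 at 151 to 200 bp (25%, adjusted exact p = 6.42e-05) and 11 against 34 at 201 to 250 bp (24.4%, adjusted exact p = 0.00103). Over the 1 to 250 bp of the rule 38.1% of the 690 mutual pairs were convergent (34.6 to 41.8, exact binomial p = 4.55e-10). That share and its p-value depend on the rule's limit, since the balance changed with distance. These tests run over pairs of 1 list, which are not replicates of a sample.

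In steps of 10 bp the convergent pairs numbered 40 at 1 to 10 bp, 31 at 11 to 20 bp, 33 at 21 to 30 bp, 29 at 31 to 40 bp and 22 at 41 to 50 bp. They numbered 18 at 51 to 60 bp and 21 at 61 to 70 bp, and then 7 in each of the 3 steps from 71 to 100 bp. Up to 70 bp, a boundary chosen after the counts were seen, there were thus 194 convergent and 196 divergent pairs, and from 71 to 250 bp 69 and 231. Divergent pairs peaked in this count at 51 to 60 bp, with 48, and again at 111 to 140 bp, with 24, 26 and 22 in the 3 steps, where convergent pairs numbered 3, 2 and 6.

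Beyond the rule's limit both kinds were less frequent. At 251 to 500 bp there were 48 convergent and 73 divergent mutual pairs, or 9.6 and 14.6 per 50 bp. At 751 to 1000 bp there were 44 and 48, or 8.8 and 9.6 per 50 bp. The 11 convergent pairs at 201 to 250 bp were near that level, whereas the 34 divergent pairs at that distance were above it. Just inside the limit, 14 convergent sites had their neighbour at 231 to 250 bp, the widest at 247 bp, and just outside it 12 had theirs at 251 to 275 bp, the nearest at 254 bp. The fragments were selected at about 100 to 250 bp, and the part of fragment length in these profiles was not tested.

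**Figure D1:**
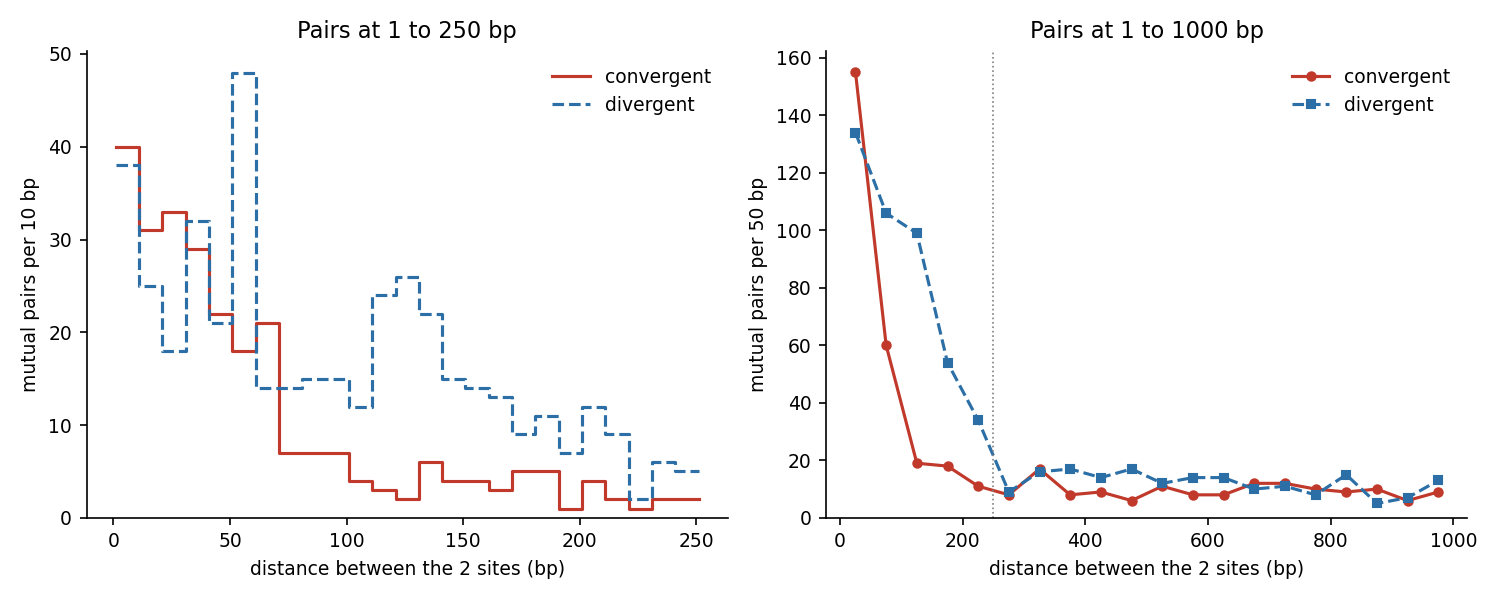
Number of mutual convergent pairs (solid red) and mutual divergent pairs (dashed blue) against the distance in bp between the sites of a pair, per 10 bp up to 250 bp (left) and per 50 bp up to 1000 bp (right, dotted line at the rule's limit). The kinds start at similar numbers, 155 and 134 at 1 to 50 bp, and convergent pairs then drop to 19 at 101 to 150 bp, where divergent pairs number 99.

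The closest convergent pairs had their start bases only a few bp apart. None was 1 bp apart, against 6 divergent pairs at that distance, and no base was listed on both strands. At 2 bp lay 5 convergent pairs. These were on 2L at 1186257 (plus) and 1186259 (minus) and at 11030261 and 11030263, on 3R at 15716550 and 15716552 and at 22895855 and 22895857, and on X at 2264483 and 2264485. The most frequent single distance was 4 bp, with 11 pairs on 2L, 2R, 3R and X, against 5 divergent pairs. It was followed by 26 bp with 9 pairs. At the other end, the 3 widest pairs lay 240, 242 and 247 bp apart, on 3R at 25681958 and 25682198, on 2L at 6338846 and 6339088, and on 3R at 7183277 and 7183524. All positions are 1-based in dm3.

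Among close convergent pairs, even distances outnumbered odd ones. At 1 to 24 bp, a range chosen after the counts were seen, 60 of 85 convergent pairs had an even distance (70.6%, Wilson 95% interval 60.2 to 79.2). Of the 72 divergent pairs in that range 35 had one (48.6%, 37.4 to 59.9). Among convergent pairs with no other listed site within 500 bp the count was 33 of 45. At 1 to 50 bp, which includes that range, 90 of 155 pairs had an even distance (58.1%, 50.2 to 65.5). At 51 to 250 bp even distances were fewer than odd ones, with 46 of 108 (42.6%, 33.7 to 52.0). Over the whole 1 to 250 bp 136 of 263 were even. These counts are given with no test.

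Convergent sites made up similar shares of the sites of the 5 large arms, between 4.27% and 5.58%. On 2L they were 119 of 2134 sites (5.58%, Wilson 95% interval 4.68 to 6.63), on 2R 134 of 2574 (5.21%, 4.41 to 6.13) and on 3L 125 of 2521 (4.96%, 4.18 to 5.88). On X they were 97 of 2086 (4.65%, 3.83 to 5.64) and on 3R, the arm with the most listed sites, 131 of 3071 (4.27%, 3.61 to 5.04). All 5 intervals overlap. The intervals of this paragraph count sites singly although most convergent sites come in pairs, so they are too narrow. The small chromosome 4, much of which is packed as heterochromatin, had the highest share, with 18 of 83 sites (21.7%, 14.2 to 31.7). Of these 18, 12 lay in a single place; without the sites of that place the share was 6 of 65 (9.23%, 4.30 to 18.7), whose interval reaches below the 4.89% (4.53 to 5.29) of the 5 large arms.

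Within the 5 large arms, each cut into 10 stretches of equal length up to its last listed site, the share of convergent sites ran from 1.64% to 11.1%, with a median of 4.67% over the 50 stretches. The highest was the first stretch of 2L, from 12816 to 2251295, with 24 of 217 sites (11.1%, 7.55 to 15.9), in 11 mutual pairs and their neighbours. Next was the last stretch of 2R, from 19091494 to 21146393, with 29 of 291 sites (9.97%, 7.03 to 13.9). The lowest was on 2R from 14806368 to 16914642, with 3 of 183 sites (1.64%, 0.559 to 4.71). These stretches were picked as the extremes of 50, and no test was made of them. Their intervals also count paired sites singly.

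**Figure D2:**
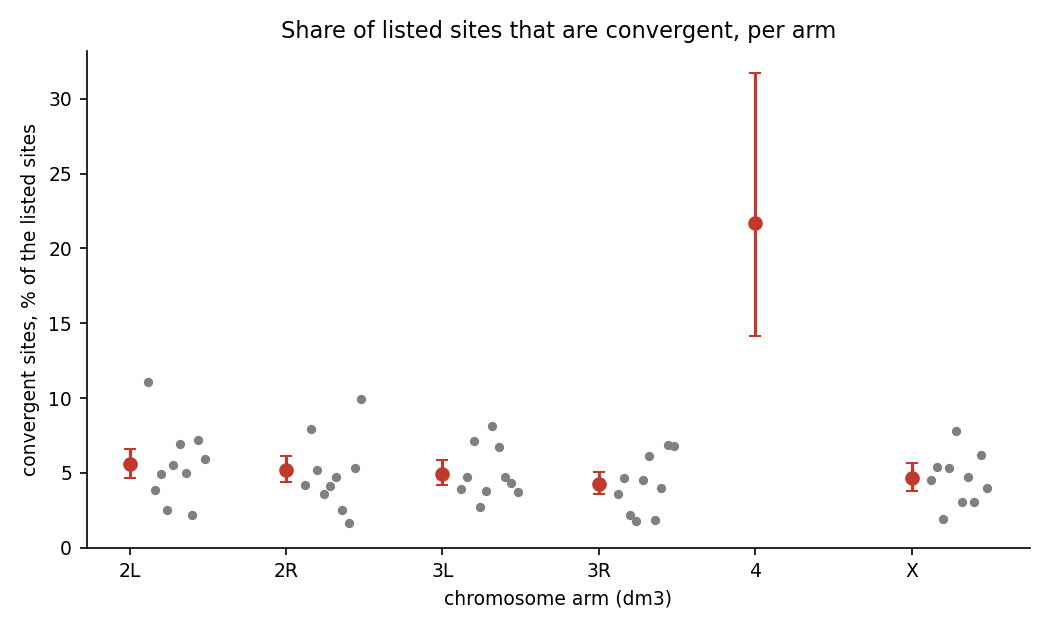
Convergent sites as a percentage of the listed sites of each chromosome arm, with Wilson 95% intervals (red), and the same percentage for 10 stretches of equal length along each of the 5 large arms, in order of coordinate (grey). Chromosome 4 lies at 21.7% with a wide interval from 83 sites, and the highest grey point is the first stretch of 2L at 11.1%.

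The balance of orientations was also tested within each arm. Convergent pairs were the minority past the threshold on 3R, with 50 of 165 mutual pairs (30.3%, Wilson 95% interval 23.8 to 37.7, exact binomial p adjusted over the 6 arms by BH = 2.71e-06). The same held on X with 41 of 113 (36.3%, adjusted exact p = 0.0122), on 3L with 56 of 146 (38.4%, 0.0122) and on 2R with 58 of 144 (40.3%, 0.0362). On 2L, 52 of 112 pairs were convergent (46.4%, 37.5 to 55.6), which did not pass (adjusted exact p = 0.61). Chromosome 4 had 6 convergent and 4 divergent pairs (adjusted exact p = 0.754). Whether the arms differ from each other was not tested.

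Most convergent pairs stood alone. Of the 263 mutual pairs 168 had no other listed site within 500 bp of either site (63.9%, 57.9 to 69.4), close to the 267 of 427 divergent pairs (62.5%, 57.9 to 67.0). When convergent sites were joined across gaps of at most 250 bp they fell into 294 groups. Groups of 2 numbered 220, of which 213 were a mutual pair, 4 had both sites on the same strand and 3 had sites on opposite strands that were not nearest to each other. Another 27 groups held a single convergent site, whose neighbour had a closer site elsewhere. Groups of 3 numbered 38, of which 19 had 2 plus-strand sites followed by a minus-strand site and 19 had a plus-strand site followed by 2 minus-strand sites. Groups of 4 numbered 7, and the remaining 2 held 6 and 9 sites.

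Same-strand neighbours, which the rule did not use, were found within 250 bp of 182 of the 624 convergent sites (29.2%, Wilson 95% interval 25.7 to 32.8), beside 18.2% of all 12469 sites on the arms. Divergent sites had them about as often (287 of 1017, 28.2%, 25.5 to 31.1). The background includes sites with no neighbour on either strand, and the difference from it was not tested. Sites of either kind that share a nearest opposite-strand site lie on the same strand within 250 bp of each other. They count one another as neighbours, so the intervals of this paragraph, which take sites singly, are too narrow. A divergent neighbour within 250 bp, farther away than the convergent one, was present at 55 convergent sites (8.81%, 6.83 to 11.3), and the converse held at 46 of 1017 divergent sites (4.52%, 3.41 to 5.98). Such a neighbour can lie only between the nearest distance and 250 bp, which leaves more room at the closer convergent pairs. The difference between these shares was not tested.

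The place with the most convergent sites, joined across gaps of at most 1000 bp, was on chromosome 4 from 614049 to 615970. Within these 1921 bp lay 18 listed sites, 12 of them convergent, 6 on each strand. Its first 317 bp held 10 sites, with 3 mutual pairs at distances of 35 bp (614139 and 614174), 26 bp (614229 and 614255) and 6 bp (614291 and 614297). Plus-strand and minus-strand sites alternated there from 614139 onwards. The other 6 convergent sites of the place were not in mutual pairs. The sites of this stretch share their sequence context and count as 1 place.

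**Figure D3:**
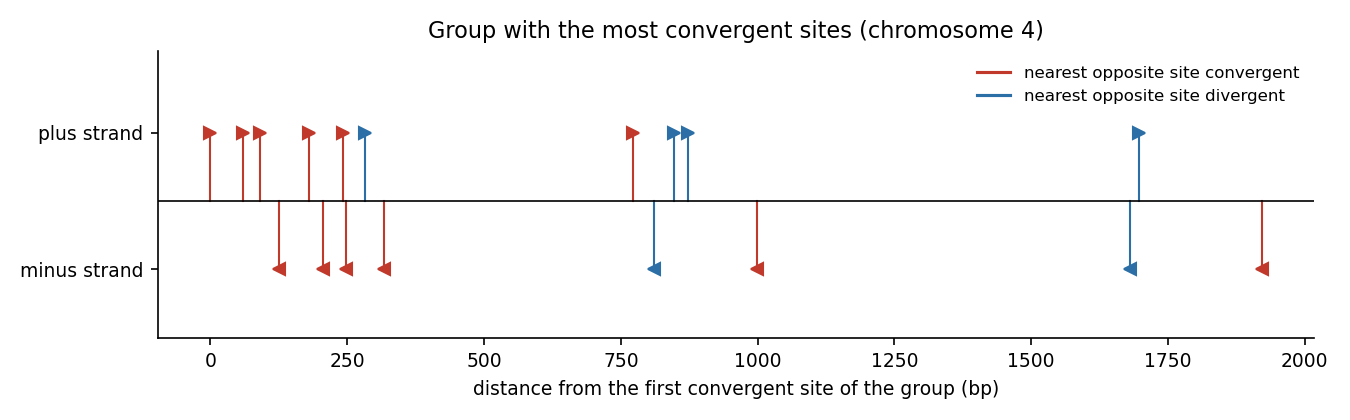
Map of the 18 listed sites in the place on chromosome 4, by distance in bp from its first convergent site, with plus-strand sites above and minus-strand sites below the line and arrowheads in the direction of transcription. Red marks the 12 convergent sites and blue the 6 whose nearest opposite-strand site is divergent; 9 of the red sites lie in the first 317 bp.

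The second place, on 3R from 26600830 to 26601009, was built differently. A single plus-strand site at 26600830 faced 5 minus-strand sites at 26600846, 26600918, 26600945, 26600976 and 26601009, so that all 5 counted the same site as nearest, at 16, 88, 115, 146 and 179 bp. Of the 7 places with 4 convergent sites, 3 on 3R had a plus-strand site before 3 minus-strand sites and 1 on X had the mirror image, 3 plus-strand sites before a minus-strand site. On 2L (21309380 to 21309545) and 3R (24991322 to 24991415) a pair of plus-strand sites faced a pair of minus-strand sites. On 2R (3885373 to 3885783) the strands alternated.

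Each site carries a serial number, from 1 to 13218, for which the labels give no basis, so it is reported as a label of the list and not as a level. Taken over all arms, the numbers of the convergent sites ran from 26 to 13173 with a median of 6490.5 (95% interval from order statistics 6070 to 7054). The range differed by arm, in the order of the numbering. The last convergent site was number 11297 on 2L, 11735 on 2R, 12178 on 3L, 12751 on 3R, 12844 on chromosome 4 and 13173 on X. Within these last stretches the numbers followed position, sorted as text. The highest-numbered 10% of the list thus held no convergent site of 2L or 2R, and 13.6% (3L) to 18.3% (3R) of those on the other arms. These shares follow the numbering and are not a trait of convergent sites. The shares of all listed sites per arm are not given here. Divergent sites had a median of 6849.0 (6368 to 7205), and the 8469 sites on the arms with no other site within 500 bp had 6711.0 (6548 to 6850). Between 55 and 70 convergent sites fell into each 10% of the list, and 61 (9.78%, 7.69 to 12.4) into the 10% with the lowest numbers.

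Close convergent sites had a lower median number than wider ones, a difference given with no test. The 326 sites with their neighbour at 1 to 50 bp had a median number of 5886.5 (4996 to 6701), and the 298 sites at 51 to 250 bp had 7053.5 (6430 to 7828). The intervals overlap. Among the lowest-numbered 10% of the list were 42 of the 326 (12.9%, 9.68 to 17.0) and 19 of the 298 (6.38%, 4.12 to 9.74). Divergent sites had medians of 6891.0 (6125 to 7706) at 1 to 50 bp and 6748.5 (6325 to 7221) at 51 to 250 bp.

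Within a pair the numbers were far apart, as they would also be for sites paired at random, a background that was not computed. The median difference between the numbers of a mutual convergent pair was 4094, and the lower number had a median of 3358 and the higher 9519. In divergent pairs the median difference was 3922. Across the 263 convergent pairs Spearman's rho of the numbers was -0.13 and Pearson's r -0.13, and across the 427 divergent pairs -0.07 and -0.08, given as descriptions of sites that come from 1 list. In 57 convergent pairs 1 site was among the lowest-numbered 10% and in 1 pair both were, so that 22.1% of pairs (17.5 to 27.4) had such a site, beside 69 of 427 divergent pairs (16.2%, 13.0 to 19.9). Counted over single sites and not over pairs, 10.4% of all those on the arms were in that 10%. The plus-strand site had the lower number in 128 of the 263 pairs (48.7%, 42.7 to 54.7). Consecutive numbers occurred in 8 convergent and 23 divergent pairs. In stretches of the list that are numbered by position, close sites can have consecutive numbers from that order alone.

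The convergent sites with the lowest numbers were picked for them, so the numbers of their partners are higher by selection. On X the minus-strand site at 18691711 was number 26, and its plus-strand partner 18 bp away at 18691693 was number 9266. On 2L the plus-strand site at 7307161 was number 33 and its minus-strand partner at 7307177, 16 bp away, number 9599. On 3L the plus-strand site at 1463819 was number 40 and its partner at 1463855, 36 bp away, number 7177. Each of these 3 lowest-numbered sites thus faced a site from the latter part of the list. The pair with the lowest sum of numbers, and the only convergent pair with both sites among the lowest-numbered 10%, was on 2L at 2242379 (plus, number 686) and 2242415 (minus, number 683). Next were a pair on 3R at 16783468 (number 148) and 16783489 (number 2174) and a pair on 2L at 9782392 (number 714) and 9782457 (number 2005).

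**Figure D4:**
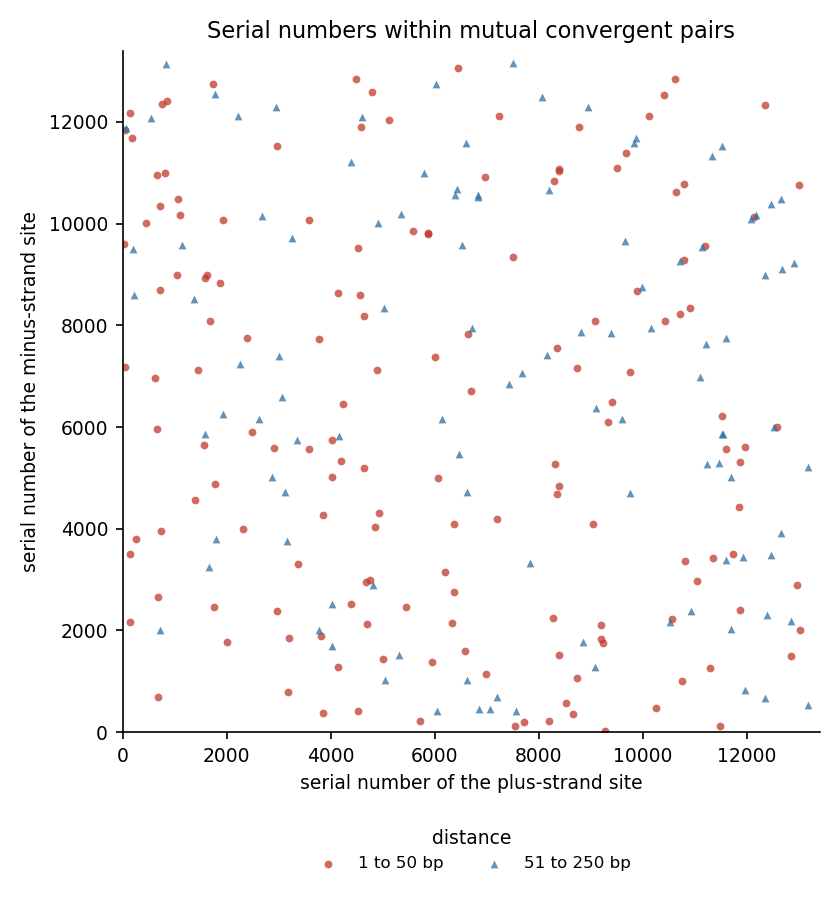
Serial number of the minus-strand site against that of the plus-strand site for the 263 mutual convergent pairs, as red circles for distances of 1 to 50 bp and blue triangles for 51 to 250 bp. The points spread over the whole field with no diagonal (Spearman's rho -0.13), and a single pair has both numbers among the lowest-numbered 10% of the list.

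The BAC screen, which used other samples and was not part of the rule, was set against the same positions. Its sites fell into 34 regions, each drawn from its first to its last BAC site, and these contained 42 of the 624 convergent sites. Because the BAC list itself sets the regions, the shares found again can depend on where regions end. Of the 42, 26 were in the BAC list at the same base and strand (61.9%, Wilson 95% interval 46.8 to 75), which is the share of all 656 genome-wide sites in the regions (61.9%). Divergent sites were found again in 31 of 61 cases (50.8%, 38.6 to 62.9). The difference of 11.1 percentage points (Newcombe 95% interval -8.27 to 29.0) did not pass (two-sided Fisher's exact p = 0.316, or 0.632 after BH adjustment over this and the next comparison). Sites with no other site within 500 bp were found again in 269 of 428 cases (62.9%, 58.2 to 67.3), a difference of -0.946 points (-16.7 to 13.0, Fisher's exact p = 1.0, adjusted 1.0). These are tests over single sites, of which 34 of the 42 were in mutual pairs and the others can share a nearest site, so the p-values treat linked sites as separate. With 42 sites a difference in recovery of the size of these intervals could not be told from none.

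Of the mutual convergent pairs, 17 lay whole in the BAC regions. Both sites were in the BAC list at the same base in 6 pairs, 1 site in 8 pairs and neither in 3. Allowing 5 bp these numbers were 9, 6 and 2. Of the 25 divergent pairs there, both sites were in the BAC list in 8, 1 in 9 and neither in 8. Where a single site of a convergent pair was found within 5 bp, it was the site with the lower genome-wide number in 4 of 6 pairs. In divergent pairs the same held in 10 of 12.

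The 6 pairs found at the same bases in both lists have the same spacing in both by their selection. In the 3 further pairs found within 5 bp the genome-wide spacing was 65 bp against 62 bp between the BAC sites (2L at 5195872), 12 against 11 bp (2L at 19546949), and 54 against 55 bp (2R at 20161382). Among the 6, the 5 with the lowest sums of BAC numbers lay on 2R at 5816935 and 5817117 (182 bp), on 3R at 2988613 and 2988653 (40 bp), on 2R at 20163261 and 20163283 (22 bp), on 3R at 25611793 and 25611966 (173 bp) and on 2L at 4955104 and 4955141 (37 bp). In 4 of the 6 the site with the lower number was the same in both lists, and in 2 it was not. On 2R at 5816935 the plus-strand site was BAC number 231 and the minus-strand site number 75, in the order of their genome-wide numbers, 4023 and 1688. On 3R at 2988613 the order was reversed, with BAC numbers 160 and 210 and genome-wide numbers 3365 and 3304. The sites on 3R at 25611793 and 25611966 had the consecutive BAC numbers 358 and 359 and the genome-wide numbers 2877 and 5015. Those on 3L at 1100953 and 1101104 had the consecutive BAC numbers 493 and 494 and the genome-wide numbers 7828 and 3331. This 3R pair counts among the 4 and the 3L pair among the 2, although consecutive numbers can come from an order by position.

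**Figure D5:**
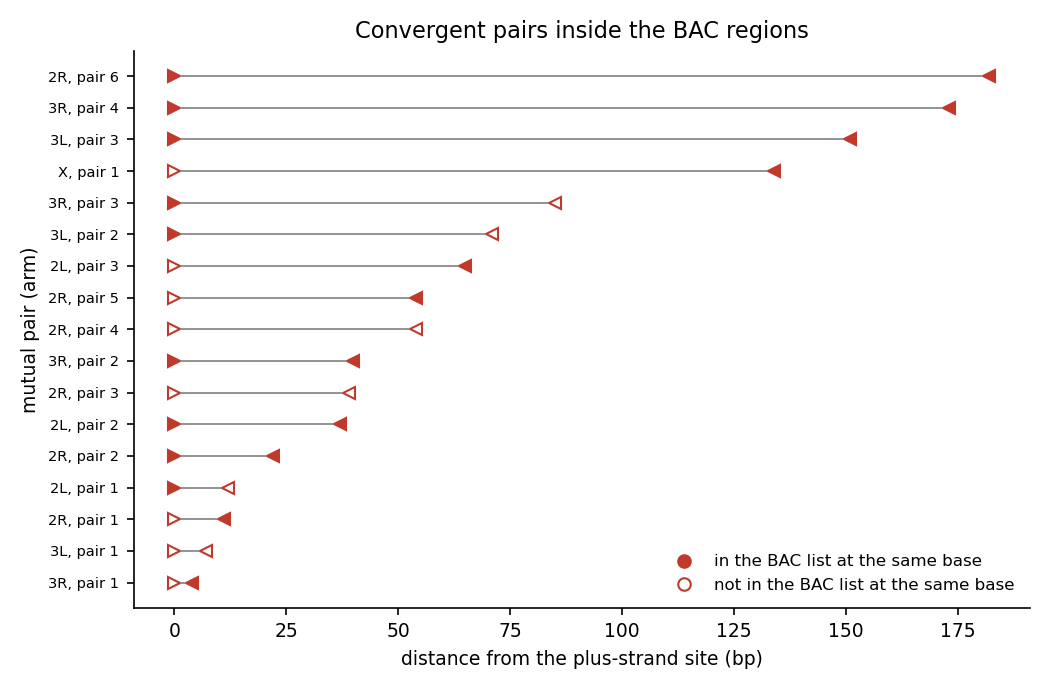
The 17 mutual convergent pairs inside the BAC regions, ordered by the distance in bp from the plus-strand site (right-pointing) to the minus-strand site (left-pointing), with filled marks for sites in the BAC list at the same base and strand and open marks for sites that are not. Both marks are filled in 6 pairs, and in 3 pairs both are open.

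The same rule applied to the BAC list alone found 29 convergent and 42 divergent sites among its 753, so that 3.85% were convergent (2.69 to 5.48). They formed 12 mutual convergent and 18 mutual divergent pairs. Of the 12, 6 were identical to a genome-wide pair, 5 had 1 site in the genome-wide list and 1 had none. Convergent pairs were 40% of the 30 (24.6 to 57.7, exact binomial p = 0.362), and 6 of 12 convergent against 6 of 18 divergent pairs lay within 50 bp (50% and 33.3%, two-sided Fisher's exact p = 0.458). Neither test passed. The interval of the convergent share holds both the genome-wide 38.1% and equal numbers, and that of the difference of 16.7 points ran from -17.0 to 46.6.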

How the data were processed

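The authors deposited 2 lists of initiation sites, which give the chromosome, position, strand and a numbered name of each site and no value per sample. Depth is unknown. Per the submitters' processing notes Bowtie 0.12.9 and CASAVA 1.9.1 were among the tools and dm3 was the build; the calling of sites is not described there. No dm3 genome or annotation was used, so no sequence, motif or gene is given. Sites were paired with Python 3.11.15, numpy 2.4.6, pandas 2.3.3 and scipy 1.17.1, and drawn with matplotlib 3.10.9, after the pairing was tested on simulated data with known answers. A BAC region ends where neighbouring sites of that list lie over 60 kb apart. Intervals cover counting error only. The members, lists and comparisons were chosen with earlier results of these data known. Sites were named by lowest serial numbers, smallest and largest distances, most members within 1000 bp and presence in both lists; other named sites were chosen after their values were seen.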

Additional observations from a re-analysis of the deposited data

How the results depend on the processing

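No paired analysis was possible because neither list has per-sample values; leaving out replicates was not possible either, and motifs were not analysed here. The difference between the share of convergent pairs that lay at 1 to 50 bp and that of divergent pairs, 27.6 points, kept its direction and stayed past the threshold in the 10 other settings of the genome-wide list, between 23.3 points (pairs with no other site within 500 bp) and 39.2 points (without the highest-numbered 25% of sites); 1 of the 10 counts single sites, some of which share a neighbour (24 points). In the BAC list, added after seeing the data, it was 16.7 points and not past the threshold, with 30 pairs in place of 690. The convergent share of pairs was 37.7% without the highest-numbered 25%, 36.5% to 40.6% with each arm left out, and 40% among the pairs of the BAC list, which no longer passed the threshold. The difference from isolated sites in recovery by the BAC screen was 0.445 points when 50 bp were allowed, a change of sign that passes no test. With regions ended at gaps of 40 kb that difference was -4.03 points (two-sided Fisher's exact p = 0.612). The median number was 5819.0 on 2L and 9191.5 on chromosome 4 (18 sites). Stretches of the list were numbered in order of arm, and the part of that order in these medians was not tested. Same-strand neighbours were found at 21.5% of convergent sites within 100 bp and 34.1% within 500 bp, a rise with the window by construction. The shares of all sites on the arms were 14.4% and 21.5%, and those of divergent sites 22.8% and 32.9%. Without its largest place, chromosome 4 had 9.23% convergent sites. The number of convergent sites was 479 up to 100 bp and 765 up to 500 bp.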
